A study of Mus musculus with 4 samples.

Results

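Wnt ligands are secreted, lipid-modified signalling proteins, and 10 of them were followed here in rib chondrocytes that had lost Eed. Those ligands are Wnt2b, Wnt4, Wnt5a, Wnt5b, Wnt6, Wnt7b, Wnt9a, Wnt10a, Wnt10b and Wnt11. They were chosen by gene symbol, whatever their level, and for each the brightest probe set was taken. They make up 10 of 22305 named genes on the array and 10 of its 19 Wnt genes, and they had 11 probe sets, since Wnt4 had a second, dimmer one. The arrays compared 2 samples of Eed conditional knockout (Eed cKO) chondrocytes with 2 samples of wild-type (Wt) chondrocytes to learn which genes depend on Polycomb repressive complex 2 (PRC2), the histone-methylating silencing complex of which Eed is a core subunit. Eed cKO pups carried floxed Eed and a Cre transgene driven by the collagen II (Col2) promoter, so deletion was aimed at the cartilage lineage, and Wt pups are labelled as wild type. Pups of both groups were 0.5 days old and of mixed C57B6/129Sv background, and cells freed from their ribs spent a night in medium with 10% fetal calf serum (FCS) before total RNA was taken. The samples are described as biological duplicates, without saying how many pups gave cells to each, so p-values measure the spread between these samples only.

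Wnt proteins are acylated by Porcn and carried to the cell surface by Wls. Canonical ligands bind a Frizzled receptor together with Lrp5 or Lrp6, which stabilises β-catenin and turns on genes with Tcf and Lef factors. Wnt5a, Wnt5b and Wnt11 are mostly known for other branches, which run through receptors such as Ror2 and Ryk and steer cell polarity and movement. In cartilage, Wnt5a and Wnt5b are known to regulate chondrocyte proliferation and maturation, and Wnt4 and Wnt9a are known from forming joints.

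Array signals below are linear intensities, and log2 differences are Eed cKO minus Wt on log2(signal + 32), tested with limma across 14944 genes that passed a filter on dim genes, with Benjamini-Hochberg adjustment and an adjusted p of 0.05 as the threshold. The pseudocount of 32 makes differences of dim genes smaller than they are. Median signals were 834 and 837 in the Eed cKO arrays and 837 and 830 in the Wt arrays. The RNA of the inactive X chromosome, Xist, had signals of 4845 and 17196 in Eed cKO and 17820 and 3634 in Wt, so samples with high and low Xist stood in both groups. Ddx3y, a gene of the Y chromosome, had 4324 and 622 in Eed cKO and 192 and 4664 in Wt. Same-numbered samples thus differed in both RNAs. The mix of sexes within a sample was not tested. Eed had signals of 1057 and 990.3 in Eed cKO, against 3597 and 3530 in Wt, a log2 difference of -1.77 (SE 0.07, adjusted p = 7.59e-05). Its arrays did not overlap between the groups, although the exons behind its probe set are not known, so the rest of the signal measures no deletion. The cartilage label was borne out by 9 chondrocyte genes such as Col2a1 and Acan, whose lowest signal on any array was 8284. In bulk samples like these, fewer cells of a type and less RNA per cell cannot be told apart.

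Among the ligands, Wnt5a and Wnt10a rose in Eed cKO chondrocytes and no ligand fell. Of the 10 ligands, 8 passed the filter, and 2 of these 8 were higher, 0 were lower and 6 did not pass the threshold. Over all tested genes, 9.63% were higher and 5.98% were lower at the same threshold. By limma's unadjusted p under 0.05, 3 of the 8 were higher and 0 were lower, where 16.7% of all tested genes were higher and 13.8% lower. The median log2 difference of the 8 ligands was 0.10, against 0.00 over all tested genes. In 4 of the 8, both Eed cKO arrays lay above both Wt arrays, in 1 they lay below, and in 3 the groups overlapped. That ordering was found for 31.1% (above) and 29.1% (below) of all tested genes.

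**Figure D1:**
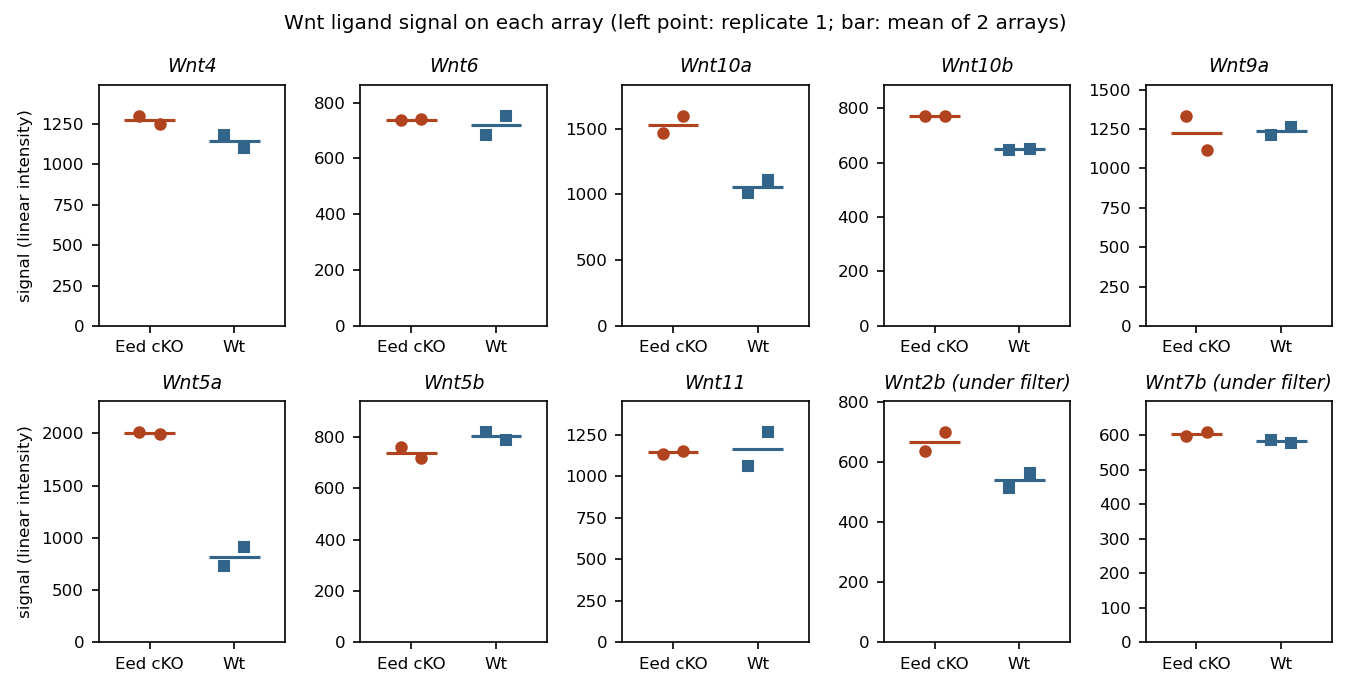
Signal (linear intensity) of the 10 Wnt ligands on each array, with Eed cKO left of Wt for each gene; each point is 1 array and each bar the mean of 2 arrays. The Eed cKO points of Wnt5a, at 1990.3 and 2008, lie far above its Wt points at 727 and 911, and those of Wnt10a are also clear of Wt, while the groups of Wnt6, Wnt9a and Wnt11 overlap.

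Wnt5a, which signals through Ror2 and guides outgrowth and cell orientation in the limb and growth plate, changed most. Its signal was 2008 and 1990.3 in Eed cKO chondrocytes, against 727 and 911 in Wt chondrocytes. Both Eed cKO arrays were close to each other and above both Wt arrays, which differed more among themselves. The means were 1999 ± 12.5 in Eed cKO and 819 ± 131 in Wt (SD, n = 2 each), a ratio of 2.44. On the log2 scale the difference was 1.26 (SE 0.11, 95% confidence interval 1.00 to 1.53, adjusted p = 0.000861). Taking each Eed cKO array against each Wt array, it ran between 1.10 and 1.43. By size of the difference Wnt5a ranked 73 of 14944 genes, so that 0.488% of tested genes rose as much or more. With any array left out the log2 difference stayed between 1.11 and 1.42.

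Wnt5b and Wnt11, the other ligands mostly known for non-canonical branches, did not pass the threshold. Wnt5b, which is close to Wnt5a in sequence and is made by prehypertrophic chondrocytes, had 759 and 719 in Eed cKO and 817 and 786 in Wt. Both of its Eed cKO arrays were below both Wt arrays, by a small margin. Means were 739 ± 28.4 in Eed cKO and 802 ± 21.8 in Wt (SD, n = 2 each), with a log2 difference of -0.11 (SE 0.08, interval -0.30 to 0.08, adjusted p = 0.390). Wnt11, a ligand of convergent extension movements and kidney branching, had 1131 and 1154 in Eed cKO and 1060.1 and 1263 in Wt. Its Wt arrays were the lowest and the highest of the 4, so the groups overlapped, and the difference was -0.02 (SE 0.10, interval -0.25 to 0.21, adjusted p = 0.921).

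To set Wnt5a against its close relative within the same array, the log2 signal of Wnt5b was taken from that of Wnt5a. This within-array difference was 1.37 and 1.43 in Eed cKO and -0.16 and 0.21 in Wt. Group means of this measure were 1.38 apart, more than the gap between the Wt arrays, and the groups did not overlap. An exact two-sided permutation test over the 4 samples gave p = 0.333, the smallest that 2 samples against 2 allow. Of the 3 ligand pairs compared in this way, none could reach the threshold for that reason.

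Wnt10a was the second ligand that rose. It acts through the canonical branch and is known from teeth, hair and other ectodermal appendages. Signals were 1463 and 1596 in Eed cKO, against 1011 and 1107 in Wt. Again both Eed cKO arrays stood above both Wt arrays, with a gap larger than the difference between arrays of a group. Mean signal was 1529.6 ± 94.1 in Eed cKO and 1059 ± 67.3 in Wt (SD, n = 2 each), a ratio of 1.44. Its log2 difference was 0.52 (SE 0.09, interval 0.31 to 0.72, adjusted p = 0.00914), and between single arrays it ran from 0.39 to 0.64. Wnt10a ranked 609 of 14944, with 4.08% of tested genes at its difference or above. The adjusted p was 0.0474 with Wt 1 left out and lower with any other array left out.

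Wnt10b, the nearest relative of Wnt10a and a ligand that favours bone formation, lay higher on both Eed cKO arrays but missed the threshold. Its signal was 769 and 771 in Eed cKO and 646 and 650.2 in Wt. The arrays of each group were almost equal and the groups did not overlap. Mean signal was 770.2 ± 1.27 in Eed cKO and 648 ± 2.84 in Wt (SD, n = 2 each), a ratio of 1.19 and a log2 difference of 0.24 (SE 0.08, interval 0.06 to 0.42). The adjusted p was 0.0836 and the unadjusted p 0.0171, from a spread that limma estimates in part from other genes of like brightness. Leaving out the dependence of that spread on brightness gave 0.0429, and over all alternatives it ran from 0.0429 to 0.350. Within arrays, Wnt10a minus Wnt10b was 0.90 and 1.02 on the log2 scale in Eed cKO, against 0.62 and 0.74 in Wt. That difference was larger in both Eed cKO arrays, by 0.28 on average (exact two-sided permutation p = 0.333, the smallest possible).

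Wnt4, Wnt6 and Wnt9a did not pass the threshold. Wnt4, a ligand of joint and kidney development, had 1299 and 1248 in Eed cKO and 1182 and 1101 in Wt. Both Eed cKO arrays were above both Wt arrays, and the difference was 0.15 (SE 0.08, interval -0.03 to 0.34, adjusted p = 0.238). Its second probe set, read from another transcript entry, had 991 and 1152 in Eed cKO and 964 and 1003 in Wt. There the groups overlapped, and the ratio of means was 1.09, beside 1.12 for the brighter probe set.

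Wnt6, a ligand of surface ectoderm and kidney tubule formation, had 736 and 742 in Eed cKO and 685 and 752 in Wt. The groups overlapped, with a difference of 0.04 (SE 0.08, interval -0.16 to 0.24, adjusted p = 0.784). Wnt9a, which is made in the joint interzone, had 1332 and 1118 in Eed cKO and 1214 and 1263 in Wt. Its Eed cKO arrays were the highest and the lowest of the 4, and the difference was -0.02 (SE 0.10, interval -0.25 to 0.21, adjusted p = 0.914). For Wnt6, Wnt9a and Wnt11 these intervals leave room for small changes either way.

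Wnt2b and Wnt7b were dim, with mean signals under the filter level of 626, and their adjusted p comes from a fit without the filter, in which 6.26% of all named genes were higher and 3.89% were lower. Wnt2b, a canonical ligand known from eye and liver development, had 636 and 699 in Eed cKO and 515 and 565 in Wt. All of its Eed cKO values were above its Wt values, and the difference was 0.29 (SE 0.09, interval 0.07 to 0.51, adjusted p = 0.107). Wnt7b, which promotes bone formation and lung growth, had 597 and 608 in Eed cKO and 587 and 578 in Wt. These groups did not overlap either, but the difference was 0.05 (SE 0.08, interval -0.15 to 0.24, adjusted p = 0.786). With the dim ligands included, both Eed cKO arrays lay above both Wt arrays in 6 of the 10, an order seen in 27.6% of all named genes, and below in 1 of the 10 (27.7%).

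**Figure D2:**
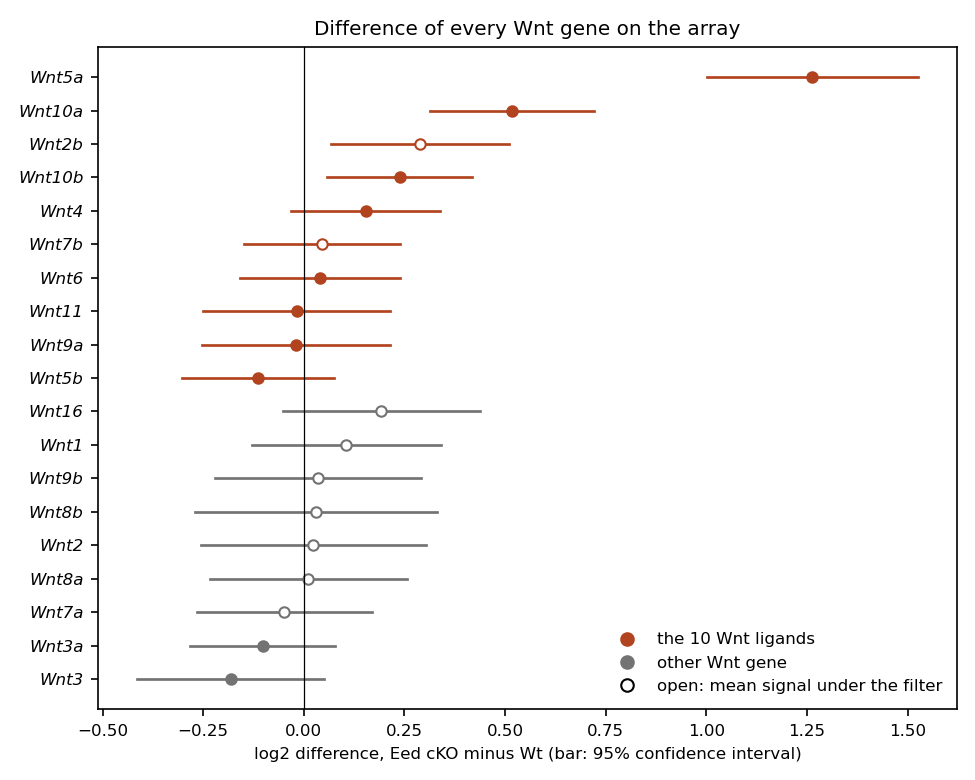
Log2 difference (Eed cKO minus Wt, x axis) of every Wnt gene on the array, with the 10 ligands above the 9 others; points are fitted differences, bars 95% confidence intervals, and open points genes under the filter. Wnt5a at 1.26 and Wnt10a at 0.52 lie furthest from 0, the intervals of Wnt2b and Wnt10b also lie above 0 but missed the adjusted threshold, and all other intervals cross 0.

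The other 9 Wnt genes of the array showed no call in either direction. Wnt3 had 687 and 635 in Eed cKO and 701 and 811 in Wt (difference -0.18, adjusted p = 0.265), and Wnt3a had 1205 and 1185 in Eed cKO and 1243 and 1329.7 in Wt (-0.10, 0.418). In both genes the Eed cKO arrays were below the Wt arrays. Wnt1, Wnt2, Wnt7a, Wnt8a, Wnt8b, Wnt9b and Wnt16 were all under the filter, with differences of -0.05 to 0.19 and adjusted p of 0.311 to 0.963 in the fit without it. None of the 2 tested genes had an unadjusted limma p under 0.05 in either direction (0 higher and 0 lower).

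Several Wnt genes lie next to each other in the genome. By RefSeq order on the mouse assembly GRCm38.p6, Wnt6 and Wnt10a are neighbours on chromosome 1, Wnt3a and Wnt9a on chromosome 11, and Wnt1 and Wnt10b on chromosome 15. Wnt10a rose and its neighbour Wnt6 did not pass the threshold. Within arrays, Wnt10a minus Wnt6 was 0.96 and 1.07 on the log2 scale in Eed cKO and 0.54 and 0.54 in Wt, a difference of 0.48 between the groups with no overlap (exact two-sided permutation p = 0.333, the smallest possible). On its other side, the cyclin-dependent kinase activator gene Cdk5r2 had 1176 and 1334 in Eed cKO and 1183 and 1263 in Wt (0.03, adjusted p = 0.832).

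Wnt5a, on chromosome 14, is flanked by Erc2, which encodes a presynaptic scaffold, and Cacna2d3, a calcium channel subunit gene. Both were under the filter, with log2 differences of -0.03 for Erc2 and 0.01 for Cacna2d3. Beside Wnt10b, the small GTPase gene Arf3 had 8182 and 7887 in Eed cKO and 6780.2 and 6701 in Wt, a rise of 0.25 (SE 0.05, adjusted p = 0.0124) that was not past the threshold without Wt 2 (0.0581). Over all 10 ligands there were 18 neighbours that are not ligands of the set. Of these, 13 were tested, Arf3 alone was higher, none was lower, and the median difference was 0.03.

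The starts of many of these ligand genes are rich in CG, the dinucleotide that marks the CG-rich stretches where PRC2 is generally known to sit. RefSeq windows of 300 bases, with 250 before an annotated start, were at hand for 7 of the 10 ligand genes, Wnt5a, Wnt7b and Wnt10a being the others, and gave 10 windows. The median window of these ligands held 37 CG, against 7 over all 32851 windows. Wnt9a had the most with 58, a number that 0.11% of all windows reach, and Wnt4 had 51 (0.715%). Wnt2b had 43 (2.61%), Wnt6 had 31 (10.6%) and Wnt10b had 18 (29.7%). The several starts of a gene differed, with 47, 4 and 7 CG in the windows of Wnt5b and 45 and 23 in those of Wnt11. Given 5′ to 3′ on the strand of the gene with each CG in capitals, are the window bases upstream of the whole annotated gene for the ligands with the fewest and the most CG among genes with a lone window, Wnt10b and Wnt9a, and for Wnt2b, whose signal was higher on both Eed cKO arrays. The stretch of Wnt2b reaches up to the annotated start within its window. Those of Wnt10b and Wnt9a end 56 and 81 bases before the annotated start of their windows, where the whole annotated gene begins. They are taken from RefSeq on GRCm38.p6, at chr15:98778207-98778400 (minus strand, 10 CG in 194 bases), chr11:59306680-59306848 (plus strand, 32 CG in 169 bases) and chr3:104961710-104961959 (minus strand, 36 CG in 250 bases).
Wnt10b: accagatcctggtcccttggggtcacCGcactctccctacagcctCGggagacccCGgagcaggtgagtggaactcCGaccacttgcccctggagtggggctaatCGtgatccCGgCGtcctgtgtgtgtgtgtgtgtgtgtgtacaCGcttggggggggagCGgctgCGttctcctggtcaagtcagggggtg
Wnt9a: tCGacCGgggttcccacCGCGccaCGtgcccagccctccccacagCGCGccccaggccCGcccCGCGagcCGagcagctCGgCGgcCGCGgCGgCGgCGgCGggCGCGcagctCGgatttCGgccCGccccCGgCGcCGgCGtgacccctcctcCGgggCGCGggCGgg
Wnt2b: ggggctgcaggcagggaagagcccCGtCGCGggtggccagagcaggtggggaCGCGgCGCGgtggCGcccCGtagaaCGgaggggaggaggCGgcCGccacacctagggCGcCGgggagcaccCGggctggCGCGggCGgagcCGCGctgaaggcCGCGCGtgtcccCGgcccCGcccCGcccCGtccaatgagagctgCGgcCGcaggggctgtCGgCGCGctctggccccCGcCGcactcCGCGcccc

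The CG of Wnt10b stand mostly as isolated capitals, while in Wnt9a and Wnt2b they run together in clusters. Wnt10b is sparse only beside Wnt9a and Wnt2b, since its whole window held 18 CG, against a median of 7 over all windows. The letters CTTTGAT, a core that Tcf and Lef factors recognise, were searched on both strands. They stood in 2 of the 10 ligand windows, of Wnt5b and of Wnt11, and in 3.73% of all windows.

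Genes whose pattern over the 4 arrays was most like that of Wnt5a were found by the distance between centred log2 profiles. Nearest were Slc43a2, an amino acid transporter gene (distance 0.164, log2 difference 1.29), Cyyr1 (0.165, 1.20) and the skeletal transcription factor gene Tbx15 (0.168, 1.40). Tbx15 had 1416 and 1533 in Eed cKO, against 470.2 and 614 in Wt, and shared with Wnt5a a lower value in Wt 1 than in Wt 2. Its Wt signals were under the filter level of 626, so Tbx15 passed the filter only through its Eed cKO arrays. A pattern over 4 arrays of 2 groups leaves many genes alike, and these 3 are given as a description only.

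The ligands were then set beside the rest of the Wnt pathway, in lists by role. For release and spreading of Wnt proteins, 16 genes were tested, of which 3 were higher, 4 were lower and 9 did not pass, with a median difference of 0.05. At an unadjusted p under 0.05 there were 6 higher and 5 lower, beside 16.7% and 13.8% of all tested genes. Notum, an enzyme that strips the lipid from Wnt proteins, rose by 0.81 (adjusted p = 0.00108), as did Trabd2b, a protease that cleaves Wnt proteins, by 0.28 (0.00668), and the heparan sulphate carrier Gpc4 by 0.35 (0.00620). Wls, the carrier of Wnt proteins to the surface, fell by 0.21 (0.0320), and the sorting and cargo genes Snx3, Tmed10 and Tmed2 fell by 0.18, 0.16 and 0.13. Porcn, which acylates every Wnt, had 1500.3 and 1466 in Eed cKO and 1241 and 1359 in Wt (0.19, adjusted p = 0.162). The 4 lower calls rest on small differences, and none was made without Wt 2 or without the intensity trend.

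Of 17 receptor and coreceptor genes tested, 7 were higher, 0 were lower and 10 missed the threshold, at a median of 0.14. By limma's unadjusted p under 0.05, 8 were higher and 1 was lower, beside 16.7% and 13.8% of all tested genes. The canonical coreceptor Lrp5 had 4861 and 5345 in Eed cKO, against 3663 and 3549 in Wt (0.50, adjusted p = 0.00373). Lrp4, Fzd6, Fzd3 and Ptk7, a polarity receptor, rose by 0.96, 0.84, 0.71 and 0.65 on the log2 scale. Fzd3 passed the filter level of 626 only through its Eed cKO signals of 1055 and 992, with 604 and 625 in Wt. Fzd4 and Fzd9 were the other calls, and Ror2, Ror1 and Ryk, which are known to bind Wnt5a, were not among them. Ror2 had 7506 and 8280.5 in Eed cKO and 7836 and 7704 in Wt (0.02, adjusted p = 0.839), Ror1 had 0.09 (0.358), and Ryk had 11079 and 10201 in Eed cKO and 12331 and 11823 in Wt (-0.18, 0.0541).

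Secreted and membrane antagonists of Wnt ligands included 14 genes, of which 9 were tested. Higher were 4, lower 0 and not past the threshold 5, and the median was 0.28. By unadjusted p under 0.05 limma gave 5 higher and 0 lower, beside the same 16.7% and 13.8% overall. Sfrp4, which binds Wnt proteins outside the cell, had 1384 and 1426 in Eed cKO, against 650.1 and 705 in Wt (1.02, adjusted p = 0.000568). Dkk1, a blocker of Lrp5 and Lrp6, rose by 0.85 (0.00364), Wif1, another Wnt-binding protein, by 0.69 (0.00919) and the Dkk1 receptor Kremen1 by 0.46 (0.0121). Frzb had 8104 and 10832 in Eed cKO and 9671 and 11895 in Wt, with overlapping groups (-0.19, 0.412).

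In the polarity branch, on which Wnt5a acts, 11 of 13 genes were tested, 3 were higher, 1 was lower and 7 missed the threshold, at a median of -0.04. An unadjusted p under 0.05 was found for 4 higher and 2 lower, beside 16.7% and 13.8% of all tested genes. By adjusted p, 9.63% of all tested genes were higher and 5.98% were lower. Prickle2 rose by 0.54 (0.00832), Vangl2 by 0.59 (0.0334) and the formin gene Daam2 by 0.45 (0.0129), and the related Daam1 fell by 0.30 (0.0355). Calls were lost for Vangl2 without Wt 1 (0.0596), with quantile normalization (0.054) and without the intensity trend (0.0669), for Daam2 without Wt 2 (0.053), and for Daam1 without Wt 1 (0.25), Wt 2 (0.109) or Eed cKO 2 (0.0680).

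Among 18 genes commonly induced by canonical signalling, 17 were tested, 8 were higher, 0 were lower and 9 missed the threshold, at a median of 0.30. At an unadjusted p under 0.05, limma gave 10 higher and 1 lower (16.7% and 13.8% over all tested genes). The transcription factor gene Lef1 had 5599 and 6864 in Eed cKO, against 1650.1 and 1828 in Wt (1.82, adjusted p = 0.000186). Ccnd1, a cyclin of cell cycle entry, rose by 1.24 (8.60e-05), and Nkd1, which dampens the signal, by 0.69 (0.000684). Axin2, a widely used readout of the branch, had 830 and 934 in Eed cKO and 662 and 759.7 in Wt, without overlap, and did not pass (0.30, adjusted p = 0.0957). Dkk1 and Notum stand both on this list and on another list given above.

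**Figure D3:**
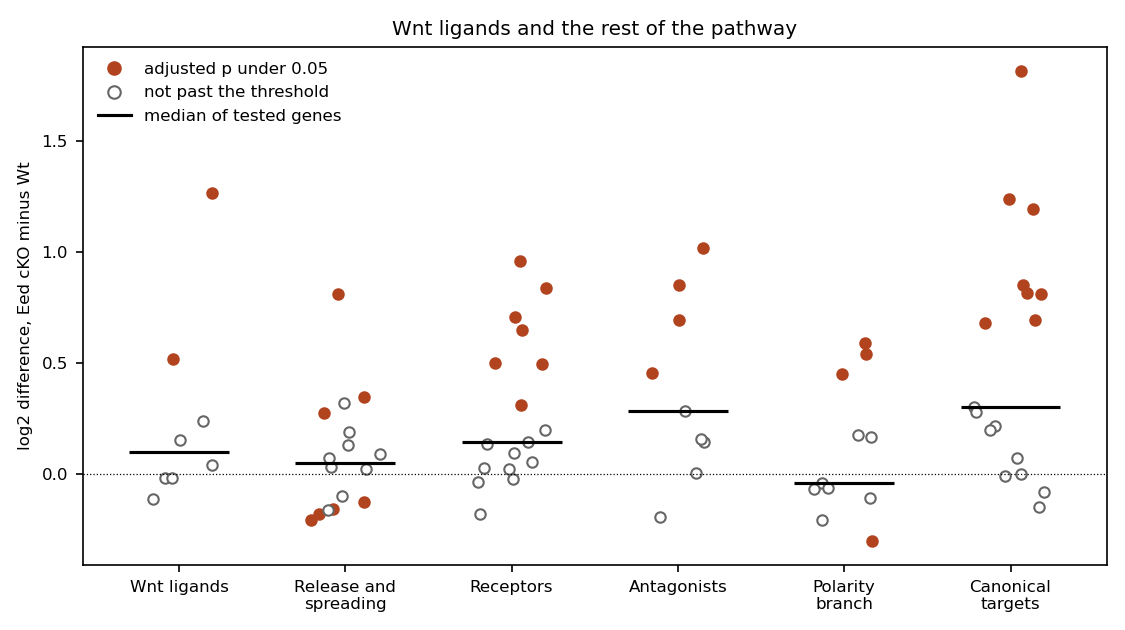
Log2 difference (Eed cKO minus Wt, y axis) of each tested Wnt ligand and of each tested gene in 5 lists of the pathway; filled points passed an adjusted p of 0.05, open points did not, and lines are medians of the tested genes. Medians lie between -0.04 for the polarity branch and 0.30 for canonical targets, with 0.10 for the ligands, and Wnt5a stands apart from the other ligands at the top of their column.

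Some genes that mark other cells of the rib also differed between the groups. Counts of calls stand beside 9.63% higher and 5.98% lower over all tested genes. Of 11 markers of perichondrium and fibroblasts, where Wnt5a is also made, 8 were higher, Dcn was lower and 2 did not pass, with a median difference of 0.53. Their summed signal was 93233 and 100149 in Eed cKO, against 78501 and 84014 in Wt. Twist1, Osr1 and Prrx1 rose by 1.21, 1.31 and 0.73. The matrix genes of the list moved less, with 0.32 for Col1a1, 0.31 for Col1a2 and -0.25 for Dcn. Col3a1 (0.01) and Postn (0.23) did not pass. Of 9 markers of hypertrophic cartilage, 7 were higher and Col10a1 was lower, and their sums were 81776 and 97976 in Eed cKO and 57215 and 70834 in Wt. For keratinocytes, where several canonical ligands are made, 2 of 8 tested markers were higher (Perp by 1.23 and Dsp by 0.97). Lower were 0, and 6 did not pass, among them Krt10 (0.03), Sfn (-0.17) and Col17a1 (-0.18). Epcam (0.56, adjusted p = 0.0514) and Cdh1 (0.29, 0.0501) were also among the 6 and narrowly missed the threshold. Both Eed cKO arrays of Epcam and of Cdh1 lay above both Wt arrays. Dsp passed the filter level of 626 only through its Eed cKO signals of 958 and 898, with 445 and 475 in Wt. Sums over the 12 keratinocyte markers were 23596 and 22280.3 in Eed cKO and 15799.7 and 16068 in Wt. Most of that gap came from Perp, and the other 11 summed to 12710.4 and 12750.2 in Eed cKO and 11289 and 11947 in Wt. The defining keratins Krt14, Krt15 and Krt1 and the factor Trp63 were under the filter, and Krt5 had 1759 and 1701 in Eed cKO and 1481 and 1508 in Wt (0.21, adjusted p = 0.0955). No marker of these lists was at 0 on any array. Array signals include background, so this does not tell which of these cells were present. The part of such cells in the rise of Wnt5a and Wnt10a was not tested.

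Chondrocyte markers themselves differed little for the most part, with 1 of 9 higher (Matn1 by 0.56), 2 lower and a median of -0.07. Both Eed cKO arrays lay below both Wt arrays in 7 of the 9 and above in 1. Those orders were seen in 29.1% and 31.1% of all tested genes. Sums were 221217 and 218227 in Eed cKO and 223001 and 226074 in Wt. Of the remaining lists, muscle had 3 of 6 tested markers higher and 1 lower, with sums of 9750.2 and 11157 in Eed cKO and 9786 and 9948 in Wt. Endothelium had 1 of 5 higher and 1 lower (sums of 7015 and 7461 in Eed cKO, 6855 and 6813 in Wt). Macrophages had 0 of 7 higher and 2 lower (12448 and 11006 in Eed cKO, 12557 and 12208 in Wt). The same threshold called 9.63% of all tested genes higher and 5.98% lower.

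The calls of Wnt5a and Wnt10a were repeated with other filters, pseudocounts, normalization and spread estimates, and with each array left out. Of 13 alternatives, 12 kept both calls. The other filters and the mean of all probe sets left the differences of both ligands unchanged, so they could alter only the adjusted p. With an array left out, the spread within its group is not seen. The alternative that lost the calls was the methods' t-test, which takes the spread of each gene from its own 4 arrays. Its adjusted p was 0.189 for Wnt5a and 0.217 for Wnt10a. The study's methods name this unpaired test for comparing 2 groups and do not tie it to the arrays. It was applied here to the same log2 signals, with Benjamini-Hochberg adjustment. The same test after adjustment called 2 genes higher and 2 lower on the whole array.

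**Figure D4:**
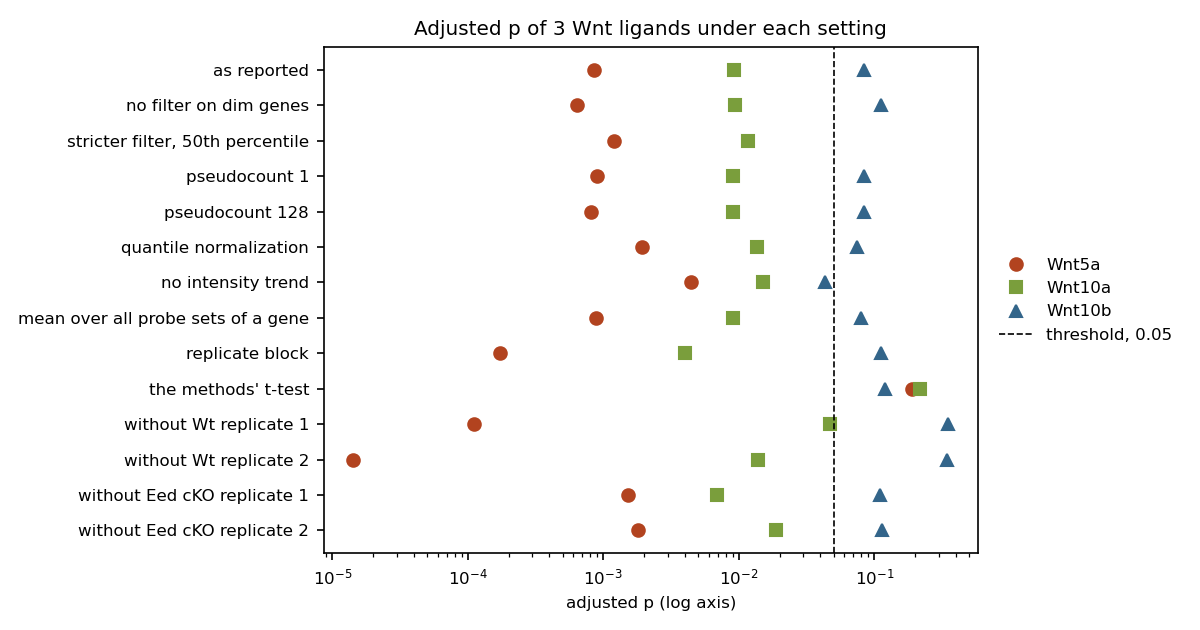
Adjusted p (log axis) of Wnt5a, Wnt10a and Wnt10b as reported and under each alternative, 1 alternative per line; the dashed line is the threshold of 0.05. Points of Wnt5a and Wnt10a lie left of the line except in the methods' t-test, where they are at 0.189 and 0.217, and those of Wnt10b lie right of it except without the intensity trend, at 0.0429.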

How the data were processed

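RNA of 4 samples was measured on Affymetrix Mouse Gene ST 1.0 arrays. The deposited values are linear intensities of 35512 probe sets, summarised by the authors, with the arrays at a common level. A supplementary sheet of the study names them dChip signals. Background correction, normalization and build were among steps not given in the sources used here. A second table, also deposited, repeated these intensities. Columns of the authors' own ratios were not used. Groups and replicate numbers came from the sample titles.

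Names were updated through RefSeq genes of GRCm38.p6, by accession for 18664 probe sets, by symbol for 2420 and by an older name for 1957, while 2134 kept their name and 10337 had none. For each gene the brightest probe set was kept, and genes dimmer on average than the 33rd percentile (a mean signal of 626) were left out. Log2(intensity + 32) was tested with limma 3.58.1 in R 4.3.3 (lmFit, eBayes with an intensity trend, two-sided, group as the only term), with Benjamini-Hochberg over 14944 genes. The fit had 2 residual degrees of freedom, raised to 6.91 by the shared spread. It was also run on simulated data drawn from its own fitted spread, which cannot show how well it suits these arrays. Arrays have no read depth, and their number limits the precision. Replicate numbers were not used as pairs, since the labels do not say that same-numbered samples belong together. Deviations of same-numbered samples had a correlation of -0.06. The study's methods state that knockout mice were compared with littermate controls, without saying which arrays share a litter. Whether same-numbered samples share one was not tested.

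The ligands and lists were chosen with earlier results of these data known. Named genes are the ligands, Eed, the other Wnt genes, the nearest neighbours, the 3 genes most like the ligand with the largest difference, and up to 4 genes with the smallest p of each list. Any gene named beyond these was chosen after its values were seen. Alternatives were 2 other filters, pseudocounts of 1 and 128, quantile normalization, no trend, the mean of all probe sets, a replicate block, the methods' t-test and each array left out.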

Additional observations from a re-analysis of the deposited data

How the results depend on the processing

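The number of arrays limits these results. Leaving out an array leaves a group with 1, which is then assumed to vary like the other group. Wnt5a and Wnt10a were called under every alternative but the methods' t-test, and no ligand was called lower under any.

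Without the trend 574 genes were lower, against 894. With the methods' t-test 2 genes were higher and 2 lower, and 0 ligands were higher (3 at an unadjusted p under 0.05). That test called 0 genes of the release, receptor, antagonist, polarity and canonical target lists in either direction, though 3, 7, 4, 2 and 8 were higher and 5, 0, 0, 2 and 0 lower at an unadjusted p under 0.05 (11.7% and 8.04% of all tested genes), and it gave Eed an adjusted p of 0.145 at a difference of -1.77. Lower calls in the release list were 0 without the trend. Higher calls among antagonists were 2 with the stricter filter (50th percentile). Lower calls were 1 among receptors and 1 among antagonists with the replicate block. That block, whose numbers are not known to pair the samples, gave 1539 genes higher and 972 lower, kept 2 ligands higher and changed no ligand's call.

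With each array left out in turn, genes higher ran from 928 to 1562, with 928 without Wt 1. Genes lower ran from 385 to 1170, with 509 without Wt 1 and 385 without Wt 2. Ligands higher stayed at 2. Lower calls ran from 0 to 4 in the release list (0 without Wt 2, 2 without Eed cKO 2), and from 0 to 1 in the receptor list, the antagonists, the polarity branch and the canonical targets. Differences that changed sign ran from -0.024 to 0.11 for Wnt6, -0.14 to 0.10 for Wnt9a, -0.14 to 0.10 for Wnt11, -0.11 to 0.16 for Wnt2, -0.10 to 0.0049 for Wnt7a, -0.079 to 0.10 for Wnt8a, -0.13 to 0.19 for Wnt8b, -0.087 to 0.16 for Wnt9b, -0.13 to 0.075 for Erc2, -0.063 to 0.084 for Cacna2d3 and -0.055 to 0.12 for Cdk5r2, none of which was called as reported. The cause of these changes was not tested.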
